A study of Mus musculus with 4 samples.

Results

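A splice junction joins the donor, or 5′ splice site, of an intron to its acceptor, or 3′ splice site. The results below concern 5473 annotated junctions of the mouse that have a donor or an acceptor in common with another annotated junction of the same gene and that belong to no cassette exon. They were found by position alone: known junctions of a gene that shared a start or an end were kept after every junction that skips or flanks a skipped exon had been removed (5238 junctions). They are 5473 of 186874 known junctions, and another 176163 share no end with a junction that remained after the removal. The 5473 junctions lie in 2136 genes and meet at 2628 shared sites, 1025 with a shared donor and 1603 with a shared acceptor. Most sites, 2395, join 2 junctions, 233 join 3 or more, and 62 junctions belong to 2 sites.

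RNA of fetal liver cells was sequenced from 2 mice labelled wild type (WT) and 2 labelled hnRNP L -/- (KO), a knockout of heterogeneous nuclear ribonucleoprotein L. The labels tie none of the strains they list (C57BL/6, LckCre transgenic, a tdTomato and EGFP reporter at Gt(ROSA)26Sor, and CD45.1) to a sample, and they give no embryonic day, kind of deletion or litter. Ribosomal RNA had been depleted in all 4 libraries. Each library is labelled only as a mouse of its genotype, so that any p-value reflects how much the 4 libraries vary, which may be technical.

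An intron with a shared donor and a choice of acceptors, or the reverse, changes the length of an exon, its reading frame or the end of the transcript. Acceptors that lie 3 bases apart add or drop a single codon and leave the frame intact, and a choice among distant donors before a common acceptor is usually a choice of first exon and hence of promoter. hnRNP L binds CA-rich RNA and can promote or repress the splice sites beside it. Fetal liver is a site of blood formation, where red cell precursors, other blood cells and hepatocytes share the organ.

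Values for the 4 libraries are given throughout in the order WT replicate 1, WT replicate 2, KO replicate 1 and KO replicate 2. Known junctions had 4875332, 8624429, 7150406 and 6941562 reads, and the 5473 junctions took 1.12%, 1.14%, 1.08% and 1.13% of them. Junctions without annotation took 3.03% of junction reads in WT replicate 1 and 0.725%, 0.667% and 0.643% in the other libraries, while at the sites tested here their share was 0.828%, 0.659%, 0.653% and 0.689%. The level of Hnrnpl, the deleted gene, was 455, 602, 279 and 269 CPM (read counts scaled to a common library size), lower in both KO libraries (log2 fold change -0.95, SE 0.16, edgeR adjusted p = 0.0115), so its transcript was reduced and not absent. Xist had 965, 927, 952 and 6.55 CPM and Ddx3y, a gene of the Y chromosome, 0.245, 0.251, 0.104 and 55.4 CPM, so that KO replicate 2 alone had the pattern of a male. Cell types differed as well: summed markers of hepatocytes had 65176, 47356, 101102 and 82349 CPM, of erythroid cells 54761, 46990, 29319 and 22855 CPM, and of heart muscle 93.6, 558, 23.6 and 36.4 CPM. Megakaryocyte and platelet markers summed to 675, 736, 1312 and 1113 CPM, granulocyte and macrophage markers to 1066, 875, 1516 and 1161 CPM, and endothelial and stellate markers to 1034, 1067, 1427 and 1580 CPM. In bulk RNA, fewer cells of a type and less RNA per cell cannot be told apart.

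Acceptors a single codon apart were frequent. Of the 1025 sites with a shared donor, 254 (24.8%) had acceptors exactly 3 bases apart. Among internal sites alone, acceptors 3 bases apart were found at 227 of 810 sites with a shared donor. Donors 3 bases apart were found at 14 of the 609 internal sites with a shared acceptor. Among internal sites of 2 junctions with ends up to 500 bases apart, the distance was a multiple of 3 at 430 of 553 sites with a shared donor (77.8%, median 9 bases) and at 166 of 241 sites with a shared acceptor (68.9%, median 30 bases). Of the 2628 sites, 994 were choices of first junction and 215 choices of last junction, and 2447 could be matched by intron lengths to GENCODE M21 (mouse build GRCm38). At 1206 of these, coding sequence lay on both sides of every junction. At 738 the alternative ends lay outside coding sequence, and at 316 they were coding at some junctions only.

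**Figure D1:**
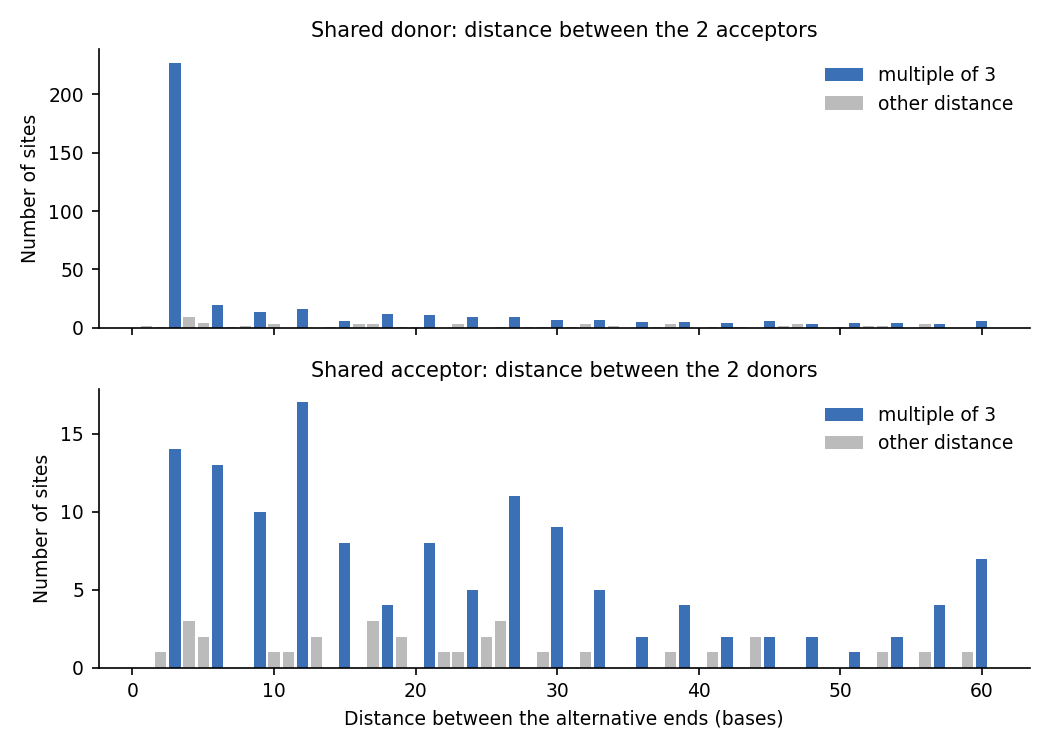
Number of internal sites of 2 junctions (vertical axes) by the distance in bases between their alternative ends (horizontal axis, up to 60 bases), for sites with a shared donor above and a shared acceptor below. Acceptors 3 bases apart form the tallest bar (227 sites), beside 14 donors 3 bases apart; blue bars are distances that are multiples of 3, and the grey bars at 4 bases hold 9 and 3 sites.

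The 3 bases between such tandem acceptors were read from GENCODE transcripts at 218 sites and ended in AG, the last bases of an intron, at 216 of them. They were CAG at 165 sites, AAG at 23, TAG at 22 and GAG at 6, and coding sequence lay on both sides at 182. The 7 sites printed here are shown because their usage is described below. Capitals mark the 3 bases that are kept when the upstream acceptor is used and removed with the intron when the downstream acceptor is used. The letters before them are the end of the upstream exon, the letters after them are common to both forms, and coordinates are those of the capitals in GRCm38.
Mon2, chr10:123031122-123031124, minus strand: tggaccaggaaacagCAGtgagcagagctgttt
Nolc1, chr19:46078873-46078875, plus strand: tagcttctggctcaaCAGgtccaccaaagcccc
Dnmt1, chr9:20940552-20940554, minus strand: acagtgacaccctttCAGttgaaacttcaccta
Sdcbp, chr4:6385026-6385028, plus strand: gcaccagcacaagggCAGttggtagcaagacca
Itih4, chr14:30897523-30897525, plus strand: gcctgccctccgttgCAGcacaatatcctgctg
Setdb1, chr3:95340063-95340065, minus strand: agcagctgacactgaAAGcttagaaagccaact
Ccne2, chr4:11192815-11192817, plus strand: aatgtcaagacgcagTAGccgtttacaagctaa

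Longer segments between alternative acceptors are shown for genes with deep reads or with one of the larger differences. In Stat3 the downstream acceptor skips the 50 bases in capitals, which shifts the frame and gives the known Stat3 beta form with another carboxyl end. In Alas2, Serbp1, Pcbp2 and Mrps36 the segment in capitals is a multiple of 3 and is likewise skipped when the downstream acceptor is used. Each segment in capitals ends in AG.
Stat3, chr11:100889541-100889590, minus strand: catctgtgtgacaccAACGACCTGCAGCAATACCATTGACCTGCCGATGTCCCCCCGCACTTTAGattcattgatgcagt
Alas2, chrX:150552959-150553003, plus strand: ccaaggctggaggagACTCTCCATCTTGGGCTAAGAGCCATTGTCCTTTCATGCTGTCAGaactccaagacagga
Serbp1, chr6:67272819-67272863, plus strand: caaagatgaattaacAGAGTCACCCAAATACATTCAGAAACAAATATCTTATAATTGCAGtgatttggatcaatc
Pcbp2, chr15:102484154-102484165, plus strand: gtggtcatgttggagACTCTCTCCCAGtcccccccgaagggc
Mrps36, chr13:100739196-100739201, minus strand: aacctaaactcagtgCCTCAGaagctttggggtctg

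At alternative donors the capitals mark the bases kept in the upstream exon when the downstream donor is used. Of 386 such segments of up to 300 bases, 377 began with GT and 9 with GC, the first bases of an intron that starts at the upstream donor. Of 539 segments between alternative acceptors, 536 ended in AG.
Stat3, chr11:100893074-100893076, minus strand: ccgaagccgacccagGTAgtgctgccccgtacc
Rod1, chr4:59524395-59524403, minus strand: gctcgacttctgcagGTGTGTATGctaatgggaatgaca
Ezh2, chr6:47576536-47576562, minus strand: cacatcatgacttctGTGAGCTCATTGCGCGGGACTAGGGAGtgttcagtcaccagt
Ezh2, chr6:47551717-47551731, minus strand: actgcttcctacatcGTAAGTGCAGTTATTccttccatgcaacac
U2af2, chr7:5075228-5075239, plus strand: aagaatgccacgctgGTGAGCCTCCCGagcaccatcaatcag

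Of the 5473 junctions, 3346 had a read in at least 1 library, 1806 had a read in every library and 2089 had at least 10 reads over the 4 libraries. Usage is the share of a junction in the reads of all junctions with at least 10 reads at its site, in percent. Sites with at least 2 such junctions could be tested: 598 sites of 1221 junctions in 532 genes, 292 with a shared donor and 306 with a shared acceptor. The median site had 164 reads over the 4 libraries, and 330 sites had at least 20 reads in every library. At those 330 sites the most used junction had a median WT usage of 81.4%. It had at least 90% at 95 sites and under 60% at 46 sites, and at 22 sites the most used junction passed 50% in 1 genotype only. The median WT usage of the most used junction was 78.6% at internal sites with a shared donor, 76.8% at internal sites with a shared acceptor, 84.1% at first junctions and 87.2% at last junctions.

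Usage of tandem acceptors 3 bases apart varied widely between sites. At 59 of them with the 3 bases read and 20 reads in every library, the upstream acceptor had more than 50% of WT reads at 31. Its median WT usage was 54.6% where the 3 bases were CAG (42 sites, range 5.21% to 90.6%), 40.9% for AAG (7 sites, 25.3% to 90.7%) and 71.3% for TAG (7 sites, 38.3% to 92.1%). The 3 ranges overlapped. Mean usage of the upstream acceptor was higher in KO at 27 sites and lower at 32, and the median difference in either direction was 5.01 percentage points.

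No site passed the test of a difference in usage between genotypes. By the site-level test of edgeR (diffSpliceDGE), adjusted over all 1395 shared sites of known junctions, 0 of the 598 sites passed an adjusted p of 0.05, and the smallest adjusted p was 0.445. The same test called 0 of 1395 sites, 0% of the whole table. At an unadjusted edgeR p under 0.05 there were 36 of the 598 sites (6.02%), beside 6.59% of all 1395 and 7.03% of the 797 sites that hold cassette junctions. DESeq2 called 0 sites, with 19 of 598 at an unadjusted p under 0.05, and limma voom called 0, with 26 of 598. Of the 36 sites, 17 of 292 had a shared donor and 19 of 306 a shared acceptor, 12 were among 194 first junctions, and 15 had 20 reads in every library. Nor did the shorter intron take reads in a common direction: of the sites with 2 tested junctions it was used more in KO at 281 and less at 287, and at 17 of the 34 such sites with an unadjusted edgeR p under 0.05.

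**Figure D2:**
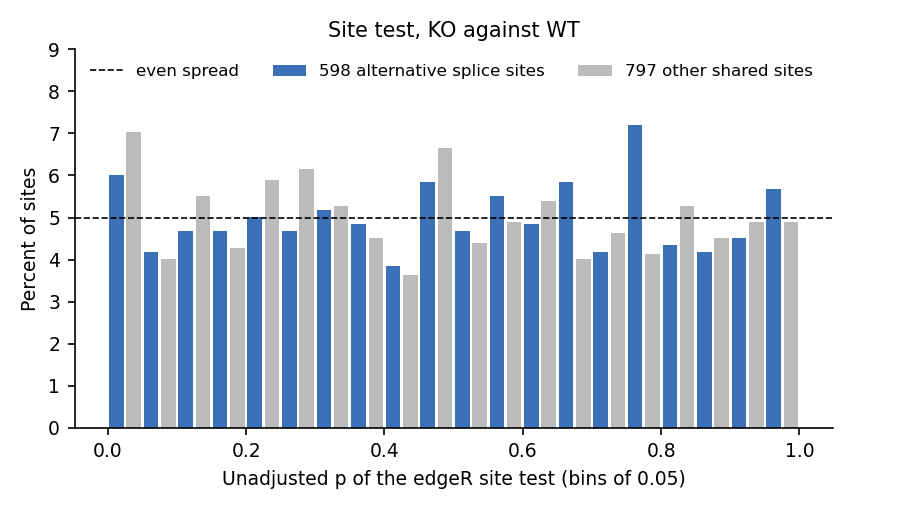
Percent of sites (vertical axis) in each bin of 0.05 of the unadjusted p of the edgeR site test (horizontal axis), for the 598 alternative splice sites (blue) and the 797 other shared sites (grey), with the level of an even spread as a dashed line at 5%. The lowest bin holds 6.02% of the blue and 7.03% of the grey sites.

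The differences between genotypes were about as large as those between libraries of 1 genotype. Over the 330 sites with 20 reads in every library, usage of the most used junction differed by a median of 5.83 percentage points between the WT libraries and 5.82 between the KO libraries, and by 4.9 to 7.12 points between a WT and a KO library. The smallest of these medians was that of WT replicate 2 with KO replicate 1, libraries of different genotypes. Between the means of the genotypes the median difference was 4.72 points, and 9 in 10 sites differed by less than 14 points. For the junction with the largest difference at a site, the 2 genotypes did not overlap at 122 of 330 sites (37.0%), and over all 743 shared sites of that depth the share was 37%. The difference also exceeded 10 points at 63 of the 122, beside 143 of 275 over all sites of that depth. The 122 sites without overlap were 44 of 134 internal sites with a shared donor, 28 of 65 internal sites with a shared acceptor, 37 of 98 first junctions and 13 of 33 last junctions.

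**Figure D3:**
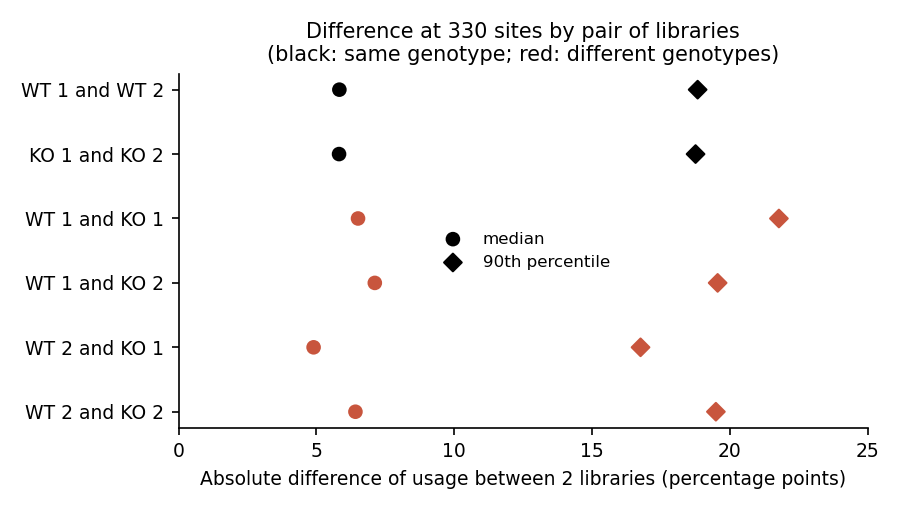
Absolute difference of usage of the most used junction between 2 libraries, in percentage points (horizontal axis), as the median (circles) and 90th percentile (diamonds) over 330 sites, for each pair of libraries (vertical axis). Pairs within a genotype (black) have medians of 5.83 and 5.82, inside the range of 4.9 to 7.12 of the pairs across genotypes (red).

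**Figure D4:**
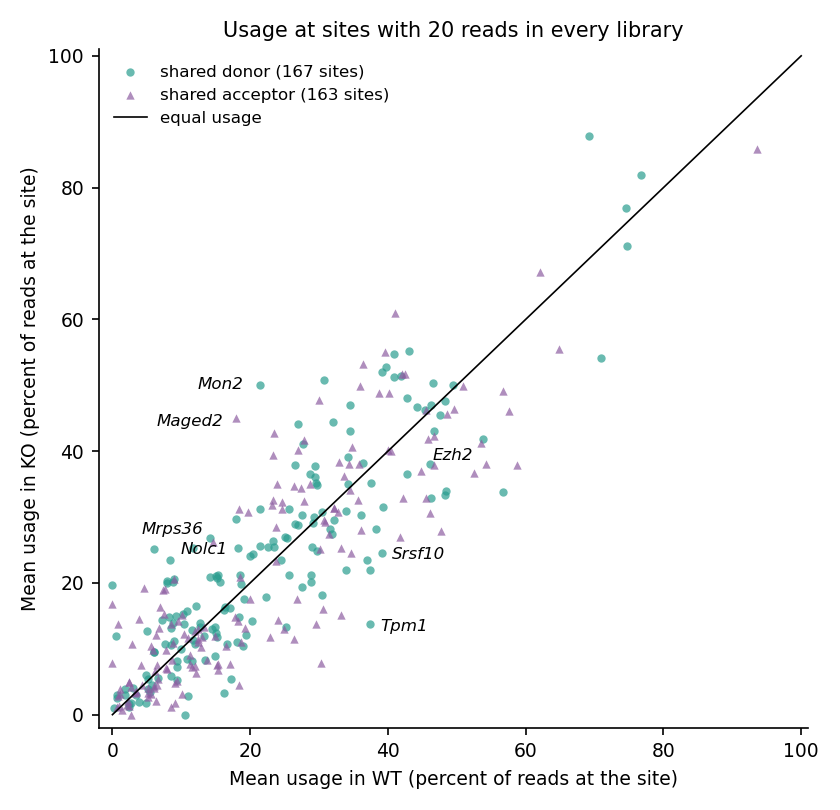
Mean usage in KO against mean usage in WT, in percent of the reads at the site, of the junction with the largest difference at each of the 330 sites (circles: shared donor; triangles: shared acceptor; line: equal usage). Most points lie near the line, and labels mark 7 of the sites with larger differences, such as Mon2 above it and Tpm1 below it.

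The sites described next did not pass the test after adjustment. They were chosen after their values were seen, for a small unadjusted p, a large difference with no overlap, deep reads or membership of a gene list, and their values are given as measurements. At 10 sites the unadjusted p was under 0.05 by edgeR, DESeq2 and limma voom alike: those of Tpm1, Tsc22d3, Masp2, Stat3, Ldb1, Eif2b4, Nde1, Fiz1, Rbms1 and Taz. The tools used the same counts, so their agreement is not independent. The filter of 10 reads over the 4 libraries can be met by 1 genotype alone. At the sites of Masp2, Stat3 and Eif2b4 a junction met it through KO only, and at those of Nde1 and Fiz1 through WT only. At the sites of Taz and Tsc22d3 it was met mostly through 1 genotype. Positions of these sites are those of the deposited junction tables, whose genome build no label or file header names and which is not GRCm38.

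Stat3, a transcription factor activated by cytokine receptors, had reads for its beta form in the KO libraries only (chromosome 11, minus strand, shared donor at 100751200, acceptors at 100750904 and 100750854). The downstream acceptor had 0, 0, 11 and 8 of 13, 79, 67 and 63 reads, a usage of 0% in both WT libraries and of 16.4% and 12.7% in KO (exact 95% binomial intervals 8.49% to 27.5% and 5.65% to 23.5%, which cover counting error only). The groups did not overlap. A count of 0 of 92 WT reads allows a usage of up to 3.26%, but WT replicate 1 with its 13 reads allows up to 23.1% (edgeR adjusted p = 0.445). The neighbouring intron of Stat3 ends at the other side of the same short exon and has donors 3 bases apart (shared acceptor at 100751242). There the upstream donor, which drops the 3 bases in capitals above, had 1, 7, 12 and 24 of 40, 56, 120 and 117 reads, or 2.50%, 12.5%, 10% and 20.5%. The lowest value was that of WT replicate 1 and the groups overlapped (edgeR adjusted p = 0.944). The gene itself was higher in KO (88.1, 105, 134 and 125 CPM, log2 fold change 0.41, SE 0.12, edgeR adjusted p = 0.0483).

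Tpm1, a tropomyosin that lines actin filaments of muscle and of the red cell membrane skeleton, had the smallest unadjusted p of the 598 sites (chromosome 9, minus strand, shared donor at 66878836, acceptors at 66877549 and 66871248). The nearer acceptor had 25, 153, 11 and 15 of 108, 296, 69 and 131 reads. Its usage was 23.1%, 51.7%, 15.9% and 11.5%, a mean of 37.4% ± 20.2 in WT and 13.7% ± 3.18 in KO (SD, n = 2; edgeR adjusted p = 0.445). WT replicate 2 stood far above the other 3 libraries, and without it the difference of the means was -9.45 in place of -23.7 points. WT replicate 2 was also the library with the highest sum of heart muscle markers, 558 CPM beside 23.6 to 93.6 CPM in the others. The part of these cells in the Tpm1 values was not tested. At a second Tpm1 site with distant donors (shared acceptor at 66883935, donors at 66891385 and 66895593) the farther donor had 12, 29, 13 and 4 of 81, 182, 147 and 84 reads, or 14.8%, 15.9%, 8.84% and 4.76% (edgeR adjusted p = 0.933).

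Ldb1, the bridging protein of the Lmo2 complex in red cell precursors, has a choice of first exons (chromosome 19, minus strand, shared acceptor at 46110855, donors at 46113545 and 46119320). The farther donor had 14, 37, 42 and 46 of 369, 342, 213 and 254 reads. Usage was 3.79%, 10.8%, 19.7% and 18.1%, higher in both KO libraries than in both WT libraries (mean 7.31% ± 4.97 against 18.9% ± 1.14, SD, n = 2; edgeR adjusted p = 0.445). Rbms1, which encodes an RNA-binding protein, likewise has distant first exons (chromosome 2, minus strand, shared acceptor at 60680529), and the farther donor had 2, 4, 16 and 18 of 49, 80, 91 and 86 reads, or 4.08%, 5%, 17.6% and 20.9% (edgeR adjusted p = 0.592). In Fiz1, a zinc finger gene, the nearer first exon had 1, 12, 0 and 0 of 8, 21, 10 and 12 reads, so that 12 of its 13 reads came from WT replicate 2.

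Masp2 encodes a protease of the lectin pathway of complement, which hepatocytes secrete. The farther acceptor of its site (chromosome 4, plus strand, shared donor at 147977927, acceptors at 147978365 and 147979689) had 0, 0, 9 and 10 of 13, 15, 24 and 31 reads. Usage was 0% in WT, where 28 reads allow up to 10.7%, and 37.5% and 32.3% in KO (edgeR adjusted p = 0.445). The 13 and 15 reads of the single WT libraries allow up to 23.1% and 20%. The gene was higher in KO (22.4, 16.9, 49.6 and 31.6 CPM, log2 fold change 1.04, SE 0.23, edgeR adjusted p = 0.0219), and the sum of hepatocyte markers was also higher in both KO libraries, whose part in the usage was not tested. Eif2b4, a subunit of the translation factor eIF2B, used the nearer of acceptors 145 bases apart in 0, 0, 5 and 5 of 21, 53, 32 and 21 reads (edgeR adjusted p = 0.445). WT reads numbered 74, which allows a usage of up to 4.05%, but WT replicate 1 with its 21 reads allows up to 14.3%.

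Nde1 acts with dynein at the mitotic spindle. The farther of its last acceptors (chromosome 16, plus strand, shared donor at 14190325, acceptors at 14191811 and 14192435) had 2, 9, 0 and 0 of 34, 59, 43 and 59 reads. The 102 KO reads allow a usage of up to 2.94%, beside 5.88% and 15.3% in WT (edgeR adjusted p = 0.464). The 43 and 59 reads of the single KO libraries allow up to 6.98% and 5.08%. Tsc22d3 and Taz, on the X chromosome, rest on few reads. In Tsc22d3, a gene induced by glucocorticoids, the far donor had 8, 2, 0 and 1 of 9, 4, 11 and 11 reads. In Taz, which encodes the cardiolipin enzyme tafazzin, the upstream of acceptors 3 bases apart had 0, 1, 5 and 6 of 9, 32, 22 and 10 reads.

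**Figure D5:**
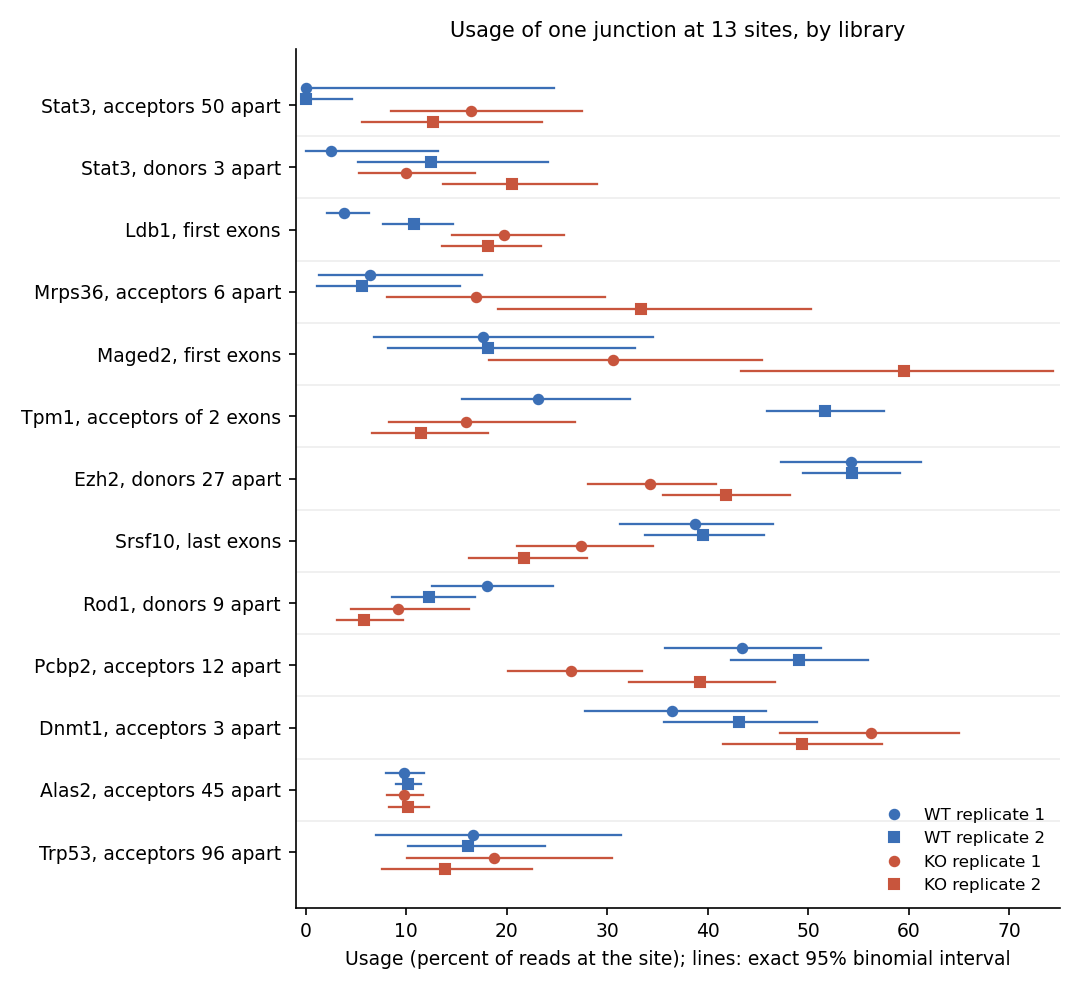
Usage of 1 junction in each library, in percent of the reads at the site (horizontal axis), at 13 sites (vertical axis), with exact 95% binomial intervals as lines (blue: WT; red: KO; circles: replicate 1; squares: replicate 2). The libraries of Alas2 and of Trp53 lie together, WT replicate 2 stands apart for Tpm1, and the KO points lie on 1 side of the WT points for Ezh2 and Srsf10.

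Tandem acceptors with groups that did not overlap included those of Mon2 and Nolc1. Of 70 sites with ends 3 bases apart and 20 reads in every library, 19 had groups that did not overlap, beside 37% of all 743 sites of that depth, and the median difference was 4.93 points. The upstream acceptor of Mon2, which encodes a protein of Golgi traffic, had 11, 9, 9 and 12 of 56, 39, 21 and 21 reads, or 19.6%, 23.1%, 42.9% and 57.1% (edgeR adjusted p = 0.802). In Nolc1, a nucleolar protein, it had 2, 5, 14 and 18 of 30, 50, 71 and 66 reads, or 6.67%, 10%, 19.7% and 27.3% (edgeR adjusted p = 0.908). Mrps36, a mitochondrial protein, has acceptors 6 bases apart, and the downstream one had 3, 3, 9 and 13 of 47, 54, 53 and 39 reads, or 6.38%, 5.56%, 17.0% and 33.3% (edgeR adjusted p = 0.737).

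Sites of RNA-binding proteins and splicing factors were the largest group of listed genes, from a list of 89 symbols that holds older and newer names of some genes. There were 25 tested sites in 19 genes, 0 called and 1 at an unadjusted edgeR p under 0.05. That site belongs to Tardbp, the RNA-binding protein TDP-43, where 3 donors meet an acceptor (chromosome 4, minus strand, shared acceptor at 147991814). Its middle donor had 1, 13, 1 and 1 of 2, 17, 16 and 17 reads, so that WT replicate 1 carried almost no information (edgeR adjusted p = 0.464). The KO libraries differed at the other donors: the nearest had 0, 0, 0 and 10 reads and the farthest 1, 4, 15 and 6. Srsf10, an SR-like protein, has 2 last acceptors (chromosome 4, plus strand, shared donor at 135419491, acceptors at 135419644 and 135423041), and the farther one had 65, 108, 49 and 44 of 168, 273, 179 and 203 reads. Usage was 38.7%, 39.6%, 27.4% and 21.7%, lower in both KO libraries (mean 39.1% ± 0.615 against 24.5% ± 4.03, SD, n = 2; edgeR adjusted p = 0.863). Its gene level was lower too (63.5, 64.0, 43.3 and 36.7 CPM, log2 fold change -0.68, SE 0.12, edgeR adjusted p = 0.0128).

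Rod1, a paralog of the polypyrimidine tract binding proteins, used the upstream of donors 9 bases apart, which drops the segment shown above, in 31, 32, 10 and 13 of 172, 261, 109 and 224 reads, or 18%, 12.3%, 9.17% and 5.80% (edgeR adjusted p = 0.846). The groups did not overlap, and the gene was lower in KO (699, 728, 481 and 536 CPM, log2 fold change -0.50, SE 0.14, edgeR adjusted p = 0.0451). Hnrnpa2b1 used the farther of 2 last acceptors outside coding sequence in 5.56%, 12.4%, 23.6% and 17.5% of 108, 178, 89 and 171 reads (edgeR adjusted p = 0.873). Pcbp2, a poly(C)-binding protein, skipped its 12-base segment in 72, 107, 48 and 73 of 166, 218, 182 and 186 reads, or 43.4%, 49.1%, 26.4% and 39.2% (edgeR adjusted p = 0.939).

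Sites were also tested in the U2AF genes, Hnrnpc and Srsf7. The subunits of U2AF recognise the acceptor of an intron. U2af2 kept its 12-base segment at an alternative donor in 40.1%, 50.9%, 43.2% and 49.4% of 187, 405, 271 and 332 reads, and the groups overlapped. U2af1 used the nearer of its acceptors (shared donor at 31791924 on chromosome 17) in 30.7%, 24.2%, 24.2% and 14.6% of 176, 326, 277 and 369 reads (edgeR adjusted p = 0.944). Hnrnpc used the upstream of donors 39 bases apart in 54.6%, 47.2%, 48.7% and 51.2% of 130, 326, 193 and 129 reads. In Srsf7 the second of 3 donors had 12.6%, 13.0%, 9.62% and 10.8% of 223, 315, 208 and 277 reads, a mean difference of -2.56 points.

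Genes of chromatin and DNA methylation had 14 tested sites in 11 of 49 genes, 0 called and 0 at an unadjusted edgeR p under 0.05. Ezh2, the methyltransferase of Polycomb complex 2, has donors 27 bases apart in its coding sequence (chromosome 6, minus strand, shared acceptor at 47508293, donors at 47526535 and 47526562). The downstream donor, which keeps the 27 bases, had 114, 234, 78 and 104 of 210, 431, 228 and 249 reads. Usage was 54.3%, 54.3%, 34.2% and 41.8%, and both KO libraries lay below both WT libraries (mean difference -16.3 points; edgeR adjusted p = 0.873). At the second Ezh2 site, with donors 15 bases apart (shared acceptor at 47497435), the downstream donor had 0, 6, 9 and 6 of 169, 278, 175 and 234 reads and was rare in every library. Dnmt1, the maintenance DNA methyltransferase, skipped its CAG triplet in 43, 75, 72 and 81 of 118, 174, 128 and 164 reads, or 36.4%, 43.1%, 56.2% and 49.4%, without overlap of the groups (edgeR adjusted p = 0.944). Setdb1, a histone H3 methyltransferase, skipped its AAG triplet in 9.71%, 8.89%, 15.1% and 14.9% of 103, 180, 212 and 215 reads (edgeR adjusted p = 0.944). H2afy, which encodes the histone variant macroH2A, used the upstream of acceptors 3 bases apart in 29.4%, 23.6%, 35.7% and 40% of 170, 199, 157 and 165 reads. In Smarca4, an ATPase of chromatin remodelling, tandem acceptors had a downstream usage of 44.4%, 19.6%, 31.4% and 57.4%, with a wider spread within each genotype than between the means.

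The erythroid regulators, heme and iron genes had 8 tested sites, 0 called and 1, that of Ldb1, at an unadjusted edgeR p under 0.05. At the Alas2 site, one of the deepest, the genotypes overlapped. Alas2, the first enzyme of heme synthesis in red cells, skipped the 45 bases shown above in 97, 251, 110 and 95 of 996, 2462, 1126 and 934 reads, a usage of 9.74%, 10.2%, 9.77% and 10.2% (edgeR adjusted p = 0.995). Its exact 95% binomial intervals ran from 7.97% to 12.3% over the 4 libraries, while its gene level was lower in KO (log2 fold change -0.69, SE 0.19, edgeR adjusted p = 0.039). So the level of Alas2 was lower in KO while the shares of its 2 forms overlapped between genotypes.

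Transcription factors of the same list had small or uneven differences. In Bcl11a, a repressor of globin genes, the nearer first exon had 7, 13, 2 and 5 of 53, 74, 57 and 42 reads, or 13.2%, 17.6%, 3.51% and 11.9%. Gfi1b, a repressor in red cell and platelet precursors, used the upstream of acceptors 99 bases apart in 36.4%, 31.4%, 30.0% and 31.8% of 44, 102, 130 and 107 reads. Sox6 used the upstream of tandem acceptors in 29.9%, 27.7%, 16.3% and 26.0% of 87, 173, 98 and 100 reads (edgeR adjusted p = 0.952). The distal first exon of Lmo2 had 69.8%, 60%, 60.9% and 50% of 43, 125, 46 and 60 reads. Steap3, a ferrireductase of iron uptake, used the farther of 2 donors in 45.9%, 45.2%, 33.3% and 32.4% of 37, 104, 72 and 71 reads, without overlap (edgeR adjusted p = 0.944).

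The remaining lists held few testable sites. The p53 pathway had 4 tested sites, the apoptosis list 1, receptors and signalling 9, cell cycle, replication and repair 10, the erythrocyte membrane skeleton 7, and cytoskeleton and adhesion 7, with 0 called in each. At an unadjusted edgeR p under 0.05 there was 1 site among receptors and signalling (Stat3) and 1 in each of the last 2 lists (Tpm1, which both hold). Trp53 itself, the tumour suppressor p53, used the upstream of acceptors 96 bases apart, which gives the alternatively spliced p53 form of the mouse, in 7, 20, 12 and 13 of 42, 124, 64 and 94 reads, or 16.7%, 16.1%, 18.8% and 13.8% (edgeR adjusted p = 0.995). Apaf1, the scaffold of the apoptosome, used the downstream of acceptors 43 bases apart in 5, 5, 9 and 27 of 26, 30, 35 and 80 reads, or 19.2%, 16.7%, 25.7% and 33.8% (edgeR adjusted p = 0.944). The downstream acceptor of Ccne2, cyclin E2, had 1, 8, 6 and 5 of 34, 62, 20 and 47 reads, and that of the spindle gene Tpx2 had 4, 17, 14 and 9 of 38, 96, 55 and 32. Fyn, a Src family kinase, used the farther of acceptors 482 bases apart in 22.7%, 31.2%, 48.1% and 40% of 22, 32, 27 and 40 reads (edgeR adjusted p = 0.946). The list of 13 known targets of hnRNP L, which holds Hnrnpl itself, had 1 tested site, in Tjp1, and it was not called.

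Marker genes of single cell types also held few sites: 3 in hepatocyte markers, 1 in erythroid and 1 in megakaryocyte markers, and 0 in heart muscle, granulocyte and macrophage, or endothelial and stellate markers, with 0 at an unadjusted edgeR p under 0.05. Itih4, a plasma protein of hepatocytes, had 121, 103, 610 and 201 CPM (log2 fold change 1.85, SE 0.44, edgeR adjusted p = 0.0263), while its upstream tandem acceptor had 20, 41, 200 and 64 of 52, 76, 477 and 123 reads, or 38.5%, 53.9%, 41.9% and 52.0%. Kng1, the precursor of kinins, used the nearer of its last acceptors in 10.8%, 13.5%, 13.7% and 19.3% of 120, 111, 342 and 233 reads (edgeR adjusted p = 0.969).

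Several of the sites with most reads belong to widely expressed genes. Sdcbp, the adaptor protein syntenin, skipped its CAG triplet in 126, 230, 183 and 120 of 1053, 1727, 1221 and 938 reads, or 12.0%, 13.3%, 15.0% and 12.8%. Serbp1, an mRNA-binding protein, kept the 45 bases shown above in 34.4%, 28.7%, 26.4% and 29.9% of 1419, 2966, 1550 and 1825 reads. Fau, a ribosomal protein gene, used the downstream of tandem acceptors outside coding sequence in 16.9%, 15.4%, 15.3% and 16.6% of 1568, 2083, 1474 and 1348 reads. In Rpl38, another ribosomal protein gene, the downstream of donors 17 bases apart had 8.39%, 7.30%, 8.73% and 5.53% of 1824, 2904, 1902 and 2441 reads. In each of these 4 genes the groups overlapped.

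A few more sites combined moderate depth with groups that did not overlap. Maged2, an X-linked gene, used the nearer of 2 first exons outside coding sequence in 6, 8, 15 and 25 of 34, 44, 49 and 42 reads, or 17.6%, 18.2%, 30.6% and 59.5% (edgeR adjusted p = 0.737). The highest value was that of KO replicate 2, the library with the pattern of a male, and the part of sex was not tested. Sel1l, an adaptor of protein degradation in the endoplasmic reticulum, used the upstream of donors 150 bases apart in 0, 1, 8 and 5 of 21, 61, 53 and 40 reads (edgeR adjusted p = 0.717). Usage was 15.1% and 12.5% in KO, while WT replicate 1 with its 21 reads allows up to 14.3%. The Sel1l gene was higher in KO (log2 fold change 0.71, SE 0.11, edgeR adjusted p = 0.00921). Caprin1, an RNA-binding protein of stress granules, used the farther of acceptors 27 bases apart in 4, 20, 9 and 3 of 41, 81, 108 and 119 reads (edgeR adjusted p = 0.73). Usage was 9.76%, 24.7%, 8.33% and 2.52%, so WT replicate 1 lay close to KO replicate 1. Without WT replicate 2 the difference of the means was -4.33 in place of -11.8 points. Eif4a2, an RNA helicase of translation initiation, used the farther of its last acceptors in 8, 8, 18 and 31 of 124, 216, 201 and 190 reads (edgeR adjusted p = 0.737). Pafah1b1, known as Lis1, used the nearer of its first exons in 5, 6, 0 and 0 of 142, 332, 201 and 140 reads, and the 341 KO reads allow a usage of up to 0.88% (edgeR adjusted p = 0.525). The 201 and 140 reads of the single KO libraries allow up to 1.49% and 2.14%. That junction had reads in WT only, so it met the filter of 10 reads through WT alone. Senp2, a SUMO protease, used the nearer of donors 67 bases apart in 13, 44, 10 and 6 of 56, 123, 88 and 37 reads, or 23.2%, 35.8%, 11.4% and 16.2% (edgeR adjusted p = 0.755), and its gene level was lower in KO (log2 fold change -0.68, SE 0.11, edgeR adjusted p = 0.0104).

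The levels of the genes that carry these sites were compared as well. To have a tested site, a gene needed at least 10 reads over the 4 libraries on each of 2 junctions. The 15036 genes of the gene test did not have to pass that filter, and the part of read depth in the shares below was not tested. Of 532 genes with a tested site, 72 were higher and 83 lower in KO by the gene test of edgeR (29.1%), beside 20.8% of all 15036 genes tested, and their median log2 fold change was -0.08 beside 0.02. These 155 genes became 80 when WT replicate 1 was left out, 58 when WT replicate 2 was and 48 when KO replicate 2 was. Of the 36 genes with a site at an unadjusted edgeR p under 0.05, 12 passed the gene test. By list, 1 of 76 tested RNA-binding and splicing genes was higher and 8 were lower, against 0 and 6 of 49 chromatin genes, 2 and 19 of 40 erythroid regulator, heme and iron genes, 3 and 15 of 30 membrane skeleton genes, 1 and 48 of 80 cell cycle genes, 20 and 4 of 34 p53 pathway genes, 1 and 4 of 28 apoptosis genes, 15 and 6 of 55 receptor and signalling genes, 11 and 2 of 41 cytoskeleton genes and 5 and 2 of 12 hnRNP L targets. The list of hnRNP L targets holds Hnrnpl itself, the deleted gene, which is among those lower in KO. The median log2 fold change was -0.22 for the RNA-binding and splicing list, -0.12 for chromatin, -0.41 for erythroid regulators, heme and iron, -0.57 for the membrane skeleton, -0.52 for the cell cycle and 0.47 for the p53 pathway, beside 0.02 over all genes. In usage, the median difference in either direction at sites with 20 reads in every library was 7.81 points over 19 sites of RNA-binding and splicing genes, 9.71 over 8 sites of chromatin genes, 7.67 over 8 sites of erythroid regulators, heme and iron, 8.06 over 4 sites of membrane skeleton genes and 8.57 over 3 sites of cytoskeleton genes, beside 4.77 over all 330 sites. It was 3.86 over 8 sites of cell cycle genes, 4.1 over 4 sites of receptor and signalling genes and 0.776 over 3 sites of hepatocyte markers, and the apoptosis, p53 and erythroid marker lists had 1 such site each, with 11.8, 0.108 and 0.00324 points. The membrane skeleton and cytoskeleton lists both hold the 2 Tpm1 sites described above, and 8.57 is the size of the difference at the second of these. Read depth and level of usage were not matched between the lists and the 330 sites, and their part in these medians was not tested. With 2 libraries a group an exact permutation test of a single site cannot give a two-sided p below 0.333, so a difference at 1 site rests on the spread that the fit pools over sites.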

How the data were processed

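The authors deposited, per library, raw read counts of splice junctions marked as known or putative and a table of RefSeq transcripts with read counts, reads per nucleotide (a coverage signal) and RPKM, per the file headers. The coverage and RPKM values were not used. No source used here gives the aligner, the rules of junction counting or the genome build. Start and end of a junction are the exon bases beside the intron: the lengths so computed matched a GENCODE M21 intron of the gene for 99.5% of 169388 known junctions. Strand-specific counting is not stated, and close copies of a gene can share reads.

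Junctions with 10 or more reads in all were tested with diffSpliceDGE of edgeR 4.0.16 in R 4.3.3, with the shared site in place of the gene, TMM scaling of known junction reads, and Benjamini-Hochberg adjustment over 1395 sites (598 described here and 797 that hold cassette junctions), at a threshold of 0.05. Reads at the tested sites numbered 40605, 70798, 54031 and 54743. Genes were tested with edgeR on the counts of the transcript with most reads, and CPM values use TMM. DESeq2 1.42.0, limma 3.58.1, other filters and scalings, left-out libraries and a replicate block were tried as alternatives. The test was checked on simulated data. Exact binomial intervals are at 95%, and the limit for a count of 0 is 3 reads of the total. Sites were matched to GENCODE by gene, strand, shared end and intron lengths, and sequences come from its transcripts.

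The rule for named sites took called sites with 20 reads in every library, of which there were 0, up to 2 sites of each gene list and the 6 sites with most reads. The other sites were chosen after their values were seen. The junctions and the lists were chosen with earlier results of these data known. Some results the rule names are not reported here.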

Additional observations from a re-analysis of the deposited data

How the results depend on the processing

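The count of called sites was 0 under each of the 14 alternatives, in all, for shared donors and for shared acceptors wherever each was computed, and the smallest adjusted p ranged from 0.234 (junctions with at least 40 reads, 232 sites) to 1 (DESeq2). Counts at an unadjusted p under 0.05 were 37 of 598 sites with the size factors of DESeq2, 53 of 1250 with no filter, 7 of 232 at 40 reads, 37 with a fit on these sites alone, 39 of 647 with sharing counted among all known junctions, 39 of 632 where a trio needed reads, and 19 of 518 to 37 of 506 with a library left out. The numbers in the file names that a WT and a KO library share may name a pairing. With these as a replicate block, 0 sites were called and 27 of 598 had an unadjusted p under 0.05. Deviations of libraries with the same number correlated at -0.112 over 743 sites and at 0.178 over 15036 genes. With 2 libraries a genotype, these values cannot tell whether the libraries are paired. No site was called, so called genes could not be counted among genes with a called site, and the count of genes with a tested site past the gene test was added after the data were seen. It was 155, ranged from 48 to 122 with a library left out and was 208 with the replicate block, 156 with the size factors of DESeq2, 185 with DESeq2 and 189 with no filter. Of 53 sites whose usage was recomputed, 45 kept the direction of the difference with each left-out library for which a value was computed. Nde1, Tsc22d3 and Pafah1b1 had no value with either WT library left out, and Eif2b4, Taz and Sel1l none with either KO library left out. Fiz1 and Tardbp had none without WT replicate 2. The Stat3 site of the beta form had none without KO replicate 1, and Masp2 none without KO replicate 2. These sites are counted among the 45, so their stability was only partly checked. At the other 8 the difference crossed 0: from -4.58 to 6.18 points in U2af2, -4.68 to 2.69 in Hnrnpc, -0.22 to 0.23 in Alas2, -2.57 to 2.35 in Trp53, -6.97 to 8.52 in Itih4, -0.96 to 0.58 in Fau, -0.67 to 25.3 in Smarca4 and -2.31 to 0.88 in Rpl38. Of the 598 sites, 330 had at least 20 reads in every library, and depth limits the rest.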

Other observations

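For some genes the junction reads and the transcript counts of the deposited tables differ widely in size. Fau had 1348 to 2083 junction reads at its tandem acceptors in a library but a transcript level of 2.22 to 3.38 CPM. Mrps36 had 39 to 54 junction reads at its site and 0.117 to 0.449 CPM, and U2af1 had 176 to 369 junction reads and 5.75 to 7.94 CPM. The cause was not tested.

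The labels list mice with a reporter at Gt(ROSA)26Sor among the strains, without tying them to a sample. The first-junction site of Gt(ROSA)26Sor (chromosome 6, minus strand, shared acceptor at 113021429) had 1, 1, 7 and 2 of 9, 27, 15 and 4 reads on the shorter intron, or 11.1%, 3.70%, 46.7% and 50.0% (edgeR adjusted p = 0.717), with 4 reads in KO replicate 2.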
